A study of Mus musculus with 2 samples.

Results

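The genes described here are 8 homeobox genes grouped here as regional factors of the oral mesenchyme: Lhx6, Lhx8, Isl1, Shox2, Barx1, Meox2, Meox1 and Pitx1. They were taken from a fixed list, and a Foxf2-FLAG peak was counted for a gene if its centre lay inside the gene or if, of all protein-coding genes, that gene's transcription start site (TSS) was closest and lay within 100 kb. All 8 are among the 22359 protein-coding genes of the annotation used, and they held 20 of the 9165 peaks. Binding was mapped by anti-FLAG chromatin immunoprecipitation and sequencing (ChIP-seq) in palatal shelves of embryos at E13.5 (embryonic day), with 1 ChIP library of 26849463 tags and 1 input library of about 19230000 tags. Both labels name the same tissue and stage. The ChIP was made from 50 pairs of shelves, pooled, of embryos whose 2 copies of the endogenous Foxf2 gene carry a 3xFLAG tag introduced by CRISPR/Cas9 (Foxf2FLAG/FLAG), so the tagged protein is under the control of the endogenous gene. The labels name no strain. A ChIP from untagged embryos and shelves divided into anterior and posterior parts were not analysed here. With 1 library of each kind there is no replicate check of any value, and strong binding in few cells cannot be told apart from weak binding in many.

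Foxf2 belongs to the forkhead family of transcription factors and acts in the mesenchyme of the palate. Forkhead proteins bind short sequences built around TAAACA or TAAATA. The palatal shelves grow from the maxillary processes, and their mesenchyme differs along the anterior-posterior axis: Shox2 is expressed in the anterior part, whereas Meox2 and Barx1 are expressed in the posterior part. Lhx6 and Lhx8 encode LIM-homeodomain factors of the jaw and palate mesenchyme, and loss of Lhx8 in mice causes cleft palate. Isl1, another LIM-homeodomain gene, and Pitx1, a paired-class gene, act in the oral region and in the hindlimb, and Meox1 is the somite-expressed paralogue of Meox2.

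At least 1 peak was found at 7 of the 8 genes (87.5%), against 23.9% of all protein-coding genes. Lhx8 had 7 peaks, Shox2 had 4, Barx1 had 3, Lhx6 and Meox2 had 2 each, Meox1 and Pitx1 had 1 each, and Isl1 had none. At least 2 peaks were present at 6.80% of all genes, at least 3 at 2.48%, at least 4 at 1.19% and at least 7 at 0.197% (44 genes). The 8 genes have long surroundings: the sequence within 100 kb that lay nearest to their TSSs had a median of 123 kb per gene, against 46.5 kb over all genes. Per length of that sequence they had 19.4 peaks per Mb, and all genes together had 4.33. No test was made on these shares, since the genes were chosen with earlier results of these data known.

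**Figure D1:**
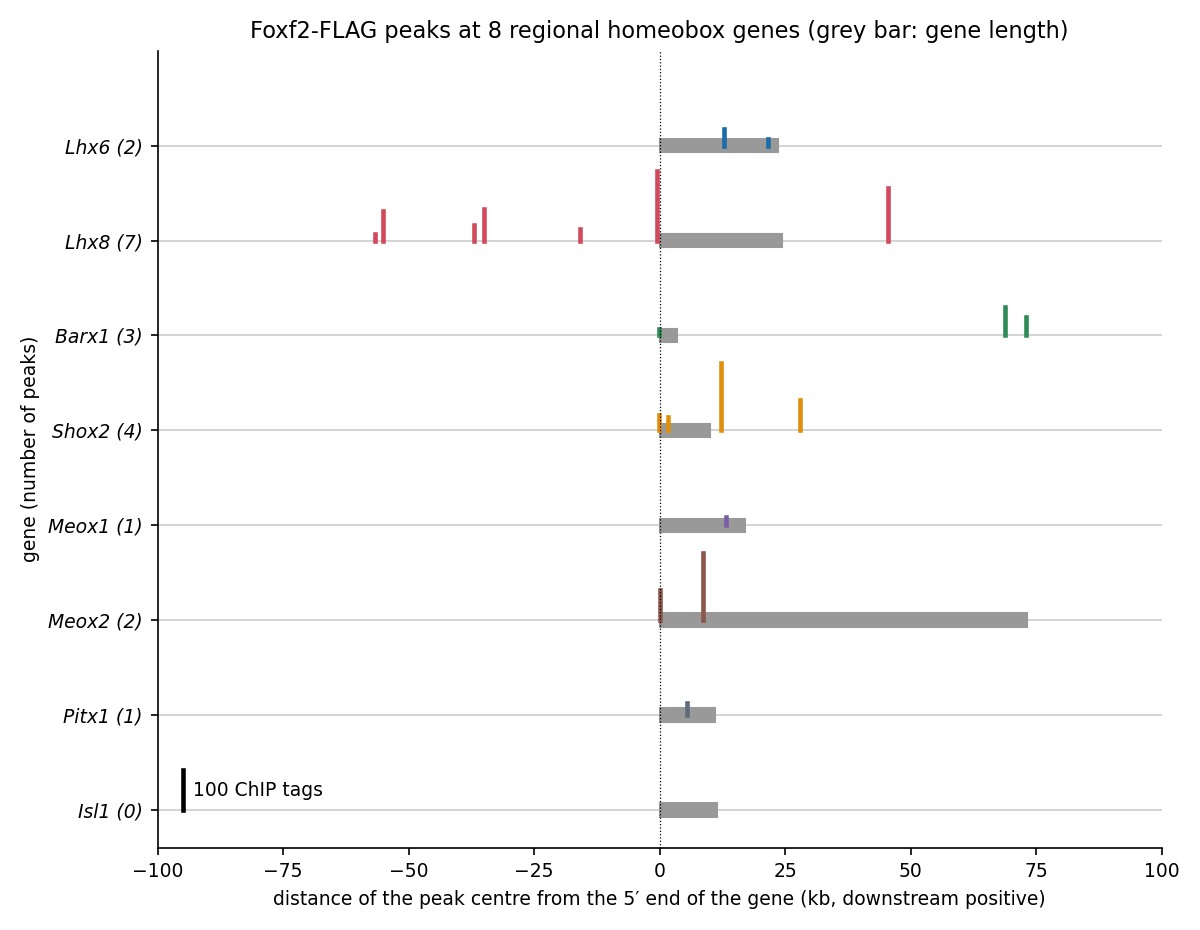
Position and ChIP tags of the 20 peaks: the horizontal axis is the distance of the peak centre from the annotated 5′ end of the gene in kb (elsewhere distances are to the nearest TSS), the height of each line is the number of ChIP tags (scale bar 100 tags), the grey bar is the gene and the number in brackets counts its peaks. The centres of the 7 Lhx8 peaks all lie outside the gene body, those of the Meox2 peaks lie in its 5′ part, and Isl1 has no peak.

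Sequences around forkhead sites are shown for some of the peaks, chosen after their sites were seen, because the peaks at these genes differ in how many sites they hold and how closely these are spaced. They were read from the NCBIM37 assembly (mm9). In the 3 stretches that follow, on the plus strand, capitals mark every forkhead site, and TGTTTAT or TATTTAT and TGTTTAC or TATTTAC are sites read on the opposite strand.
Lhx8, 0.5 kb upstream, chr3:153994171-153994283: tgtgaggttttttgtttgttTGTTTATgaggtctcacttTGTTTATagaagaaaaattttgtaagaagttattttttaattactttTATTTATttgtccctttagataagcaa
Meox2, intron 1, chr12:37843586-37843676: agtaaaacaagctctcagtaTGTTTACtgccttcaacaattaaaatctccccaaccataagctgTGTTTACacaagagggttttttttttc
Barx1, 68.7 kb downstream, chr13:48826892-48827059: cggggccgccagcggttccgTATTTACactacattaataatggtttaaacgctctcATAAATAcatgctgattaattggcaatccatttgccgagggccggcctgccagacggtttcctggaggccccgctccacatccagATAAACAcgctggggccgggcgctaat

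Single sites follow from other peaks: GTAAACA sites from Lhx8 and Lhx6, and ATAAACA sites from Shox2. Some of these peaks hold further sites that are not printed. Each sequence runs 5′ to 3′ on the strand of the site, which is in capitals, and the coordinates are those of the site.
Lhx8, 43.4 kb downstream, chr3:153948060-153948066, minus strand: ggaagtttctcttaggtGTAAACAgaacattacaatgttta
Lhx8, 43.4 kb downstream, chr3:153948296-153948302, minus strand: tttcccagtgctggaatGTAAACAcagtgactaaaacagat
Lhx8, 15.9 kb upstream, chr3:154009502-154009508, plus strand: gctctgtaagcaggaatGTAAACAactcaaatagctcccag
Shox2, 8.8 kb downstream, chr3:66773484-66773490, minus strand: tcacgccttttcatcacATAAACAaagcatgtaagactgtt
Shox2, 8.8 kb downstream, chr3:66773596-66773602, plus strand: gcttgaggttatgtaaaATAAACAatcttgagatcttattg
Shox2, 24.6 kb downstream, chr3:66757836-66757842, minus strand: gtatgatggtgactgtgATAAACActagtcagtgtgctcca
Lhx6, intron, chr2:35948171-35948177, plus strand: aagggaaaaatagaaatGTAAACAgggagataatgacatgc

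Lhx8 (ENSMUSG00000028201, chr3:153969260-153993615, minus strand) had the most peaks of the 8 genes and the most ChIP tags, 534 in its peaks together against 29 input tags. By summed tags it ranked 16 of all genes. The next protein-coding TSSs are those of Slc44a5, 355.2 kb downstream, and Tyw3, 266.4 kb upstream, so no other protein-coding TSS lies in this long interval. The start of another kind of Slc44a5 transcript lies closer, as described below. None of its 7 peaks had its centre inside the gene: 6 lay upstream and 1 downstream.

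The strongest Lhx8 peak lay at its promoter, 0.5 kb upstream of the TSS (chr3:153993568-153994708), with 172 tags in the ChIP library and 10 in the input. That is a 12.32-fold excess at equal depth (exact 95% interval 6.54 to 26.2), a score of 99 and a place above 98.0% of peaks by score, where the score is the peak caller's own strength measure. Among the 2357 peaks within 1 kb of a TSS it ranked 20 by ChIP tags and 11 by score. The GC content of its central 200 bp was 33.0%, and 11 of the 2357 promoter peaks (0.467%, this peak included) had a GC content that low, while the median of promoter peaks was 71.0%. The central 200 bp held 2 ATAAACA sites, with starts 19 bp apart in the stretch printed above, whereas a forkhead site was present in 9.89% of promoter peaks. One of the 2 continues as ATAAACAAAG, so 4 of its bases also belong to the SOX sequence AACAAAG.

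The downstream Lhx8 peak, 43.4 kb from the TSS (chr3:153947703-153948780), held 130 tags in the ChIP and 5 in the input (18.62-fold, 7.78 to 58.3). It was 1077 bp wide and had 4 forkhead sites, 2 of them GTAAACA. Its score was 32, so it ranked 2871 by score but 361 by ChIP tags. With start sites of every kind of transcript counted, the nearest was that of a Slc44a5 transcript at 27.8 kb, and the peak then passed to that gene.

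Upstream of Lhx8 the other 5 peaks lay as 2 close pairs and a single peak. The far pair, 55.1 and 56.6 kb upstream with 0.9 kb between them, had 73 tags against 4 (13.07-fold, 4.89 to 49.3) and 16 against 1 (11.46-fold, 1.78 to 481). The near pair, 34.9 and 36.9 kb upstream with 1.1 kb between them, had 77 tags against 5 (11.03-fold, 4.53 to 34.9) and 38 against 2 (13.61-fold, 3.52 to 116). The single peak 15.9 kb upstream had 28 tags against 2 (10.03-fold, 2.53 to 86.9), which is just past the fold of 10 required in peak calling. In each pair the peak nearer to Lhx8 held more tags. Each of the 5 held a forkhead site somewhere in its width, and the single peak was the 1 of the 5 with a site in its central 200 bp.

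Lhx6 (ENSMUSG00000026890, chr2:35937470-35960928, minus strand), the close paralogue of Lhx8, had weaker peaks. Both lay inside the gene. The peak 11.5 kb from the nearest TSS (chr2:35947798-35948440) was in intron 4 or 5, depending on the transcript, with 42 tags against 2 (15.04-fold, 3.91 to 128) and a GTAAACA site 55 bp from its centre. The other, 20.3 kb from the TSS (chr2:35939029-35939529), had its centre in the untranslated part of the last exon, with 17 tags against 1 (12.18-fold, 1.91 to 509) and a score of 19. It held GTAAATA 101 bp from its centre. When the starts of every kind of transcript were counted, these peaks lay 1.8 and 10.6 kb from an Lhx6 start. A peak at the shared start of Mrrf and Rbm18, 31.2 kb upstream of Lhx6, was assigned to Rbm18.

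Isl1 (ENSMUSG00000042258, chr13:117088478-117099896, minus strand) had no peak within 100 kb, although 178 kb of sequence lay nearest to its TSS within that limit. The closest peak whose nearest TSS was that of Isl1 lay 165.1 kb upstream (chr13:117264706-117265206), with 17 ChIP tags, no input tag and a score of 18, where the lowest score of any peak was 17. It held no forkhead site.

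Shox2 (ENSMUSG00000027833, chr3:66775649-66785693, minus strand), which encodes a homeodomain factor needed for growth of the anterior palate, had 4 peaks with 311 ChIP tags against 18 input tags. Most of these tags lay downstream of the gene. The peak 8.8 kb from the nearest TSS (chr3:66773128-66773900), or 12.2 kb from the 5′ end of the gene and past its 3′ end, had 167 tags against 10 (11.96-fold, 6.35 to 25.4) and a score of 71. Its centre was 33.5% GC and held 2 ATAAACA sites, 1 of them followed by AAG as in the Lhx8 promoter peak. The peak 24.6 kb from the TSS (chr3:66757523-66758023) had 74 tags against 5 (10.6-fold, 4.34 to 33.6) and the gene's highest score, 75.

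Both Shox2 peaks near the start of the gene were weaker. At the promoter (chr3:66785473-66786202) 38 ChIP tags stood against 1 input tag (27.22-fold, 4.6 to 1103), and in intron 1 (chr3:66783712-66784212) 32 stood against 2 (11.46-fold, 2.92 to 98.7). The high fold of the promoter peak rests on a single input tag, as its interval shows. Rsrc1 overlaps the start of Shox2 in the opposite direction (chr3:66785312-67162318), and the promoter peak also lies in an Rsrc1 intron. With only the outermost start of each gene counted, Shox2 had 2 peaks, since the 2 downstream peaks were then nearer to the start of Rsrc1. Beyond the limit, 157.1 kb from the Shox2 TSS, lay a further intergenic peak with 76 tags against 5 (10.89-fold, 4.47 to 34.5) and a score of 79, higher than any of the 4.

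**Figure D2:**
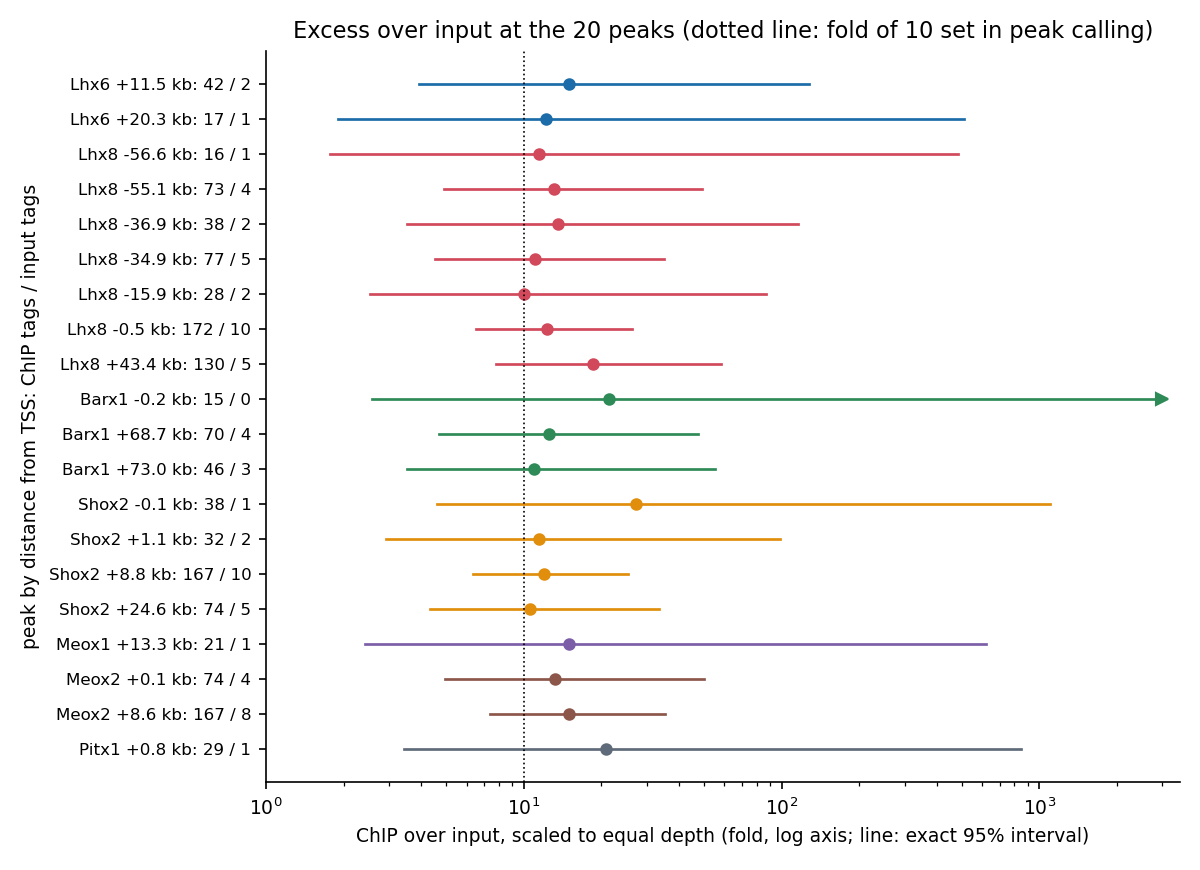
ChIP over input of the 20 peaks: points are the deposited folds at equal depth on a log axis (with 0.5 in place of 0 input tags at the Barx1 promoter), lines are exact 95% intervals from the tags given beside each name (ChIP tags / input tags), and the arrow marks an interval with no upper bound. All 20 folds are at least 10.03, as the peak calling required, and the intervals are narrowest for the peaks with 167 and 172 ChIP tags.

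Barx1 (ENSMUSG00000021381, chr13:48758367-48761876, plus strand), a homeobox gene of the posterior palate and of molar and stomach mesenchyme, had 131 ChIP tags in 3 peaks against 7 input tags. Its promoter peak was among the weakest in the list: 15 ChIP tags and no input tag in chr13:48757899-48758399, with a score of 18. With no input tag, its fold had an exact 95% lower limit of 2.57 and no upper bound. Set against 3 input tags, the limit that a count of 0 allows, the ChIP was 3.58-fold higher. This peak had 72.5% GC at its centre and no forkhead site. The main signal lay far downstream in intergenic sequence.

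The stronger downstream Barx1 peak was 68.7 kb from the TSS (chr13:48826745-48827371), with 70 tags against 4 (12.53-fold, 4.68 to 47.3) and a score of 69. Its centre had 69.5% GC, a content reached by 2.01% of the 6808 peaks farther than 1 kb from a TSS. Within this GC-rich sequence it held an ATAAACA site 22 bp from its centre, and GTAAATA and ATAAATA in an AT-rich stretch farther out. A weaker peak followed 3.7 kb further on, at 73.0 kb (chr13:48831092-48831592), with 46 tags against 3 (10.98-fold, 3.53 to 55.2) and 1 ATAAATA site. It was the assigned peak farthest from its gene. The next peak, 120.1 kb downstream of Barx1 with 124 tags against 7, lay closer to Phf2 (87.8 kb).

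Meox2 (ENSMUSG00000036144, chr12:37835127-37908372, plus strand), a homeobox gene expressed in the posterior palate whose loss leads to cleft palate in some mice, held the highest-scoring of the 20 peaks. It lay in intron 1, 8.6 kb from the TSS (chr12:37843390-37844143), with 167 tags in the ChIP and 8 in the input (14.95-fold, 7.42 to 35.2). Its score of 157 ranked 18 of the 9165. Both of its forkhead sites were GTAAACA on the minus strand, with starts 44 bp apart, and they lay 157 and 113 bp from the centre, outside the central 200 bp. The tags of this region were dense, at 22.2 per 100 bp, the highest of the 20 peaks.

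A second Meox2 peak covered the TSS (chr12:37834764-37835676), with 74 tags against 4 (13.25-fold, 4.96 to 49.9) and a score of 38. Its centre lay in the untranslated part of exon 1, and an ATAAACA site was 3 bp from the centre. By ChIP tags it ranked 190 of the 2357 promoter peaks. The site continues as ATAAACACTAG, an 11-base sequence shared with the site 24.6 kb downstream of Shox2 and present in 7 of the 9165 peaks. Shared runs of 10 bases or more were looked for among all pairs of sites in different peaks, and no test was made on them. The run given here was picked as the one present in the fewest peaks, and the other shared runs were present in 20 to 392 peaks.

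Meox1 (ENSMUSG00000001493, chr11:101738824-101755688, minus strand) had a single weak peak in intron 1, 13.3 kb from its TSS (chr11:101742160-101742660), with 21 tags against 1 (15.04-fold, 2.42 to 622). Its score of 21 exceeded that of 34.6% of peaks. A stronger peak 64.1 kb downstream of the Meox1 TSS, with 36 tags against 2 and a score of 27, was assigned to Etv4. Pitx1 (ENSMUSG00000021506, chr13:55926415-55937553, minus strand) had a single peak 0.8 kb from the nearer of its TSSs (chr13:55931627-55932444), inside the gene in an intron, with 29 tags against 1 (20.77-fold, 3.44 to 848) and a score of 19. Neither of the peaks assigned to Meox1 and Pitx1 contained a forkhead site. The tag numbers of these 2 assigned peaks lie below the median of all peaks (30).

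The 20 peaks were a mixture of strong and weak regions. Their ChIP tags ranged from 15 to 172 with a median of 44, against a median of 30 over all 9165 peaks, and their median score was 32 against 25. A score of at least 58 was reached by 5 of the 20 (25.0%) and by 920 of all 9165 peaks. The 5 were at Lhx8, Barx1, Shox2 (2 peaks) and Meox2. The median fold over input was 12.8 against 12.9, so the peaks at these genes did not stand out by fold. Wider than 500 bp, the unit width of peak calling, were 12 of the 20 (60%) and 34.6% of all peaks.

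**Figure D3:**
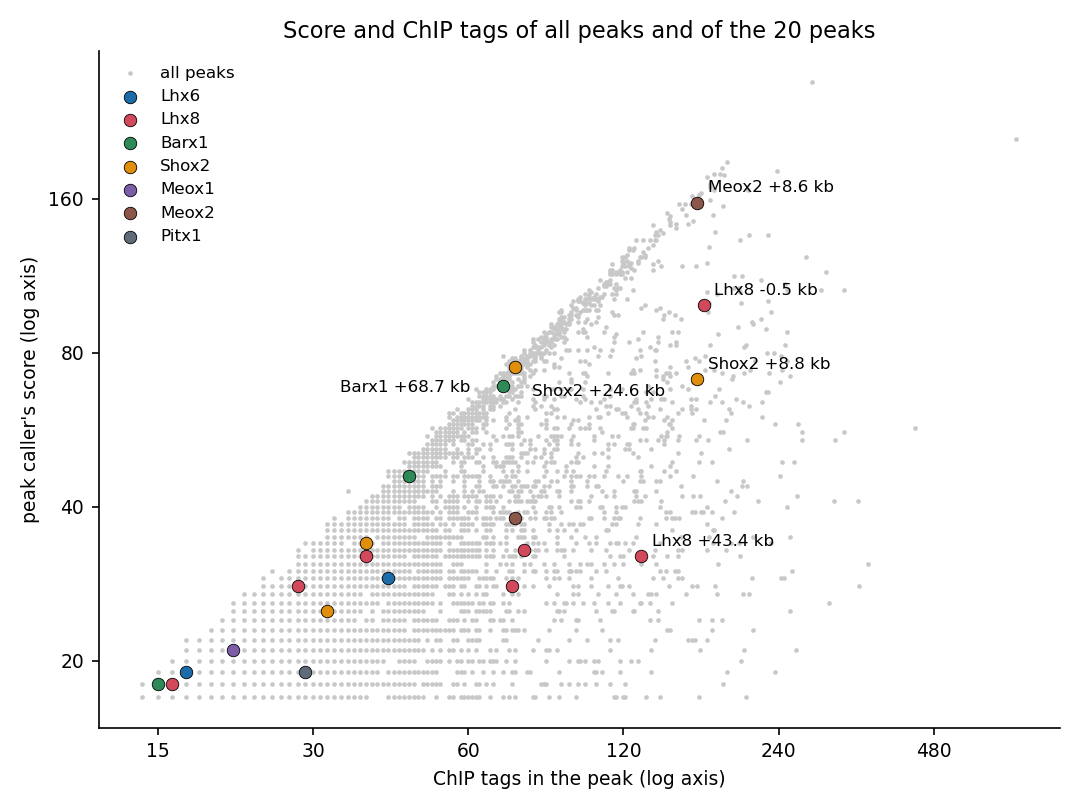
Score of the peak caller against ChIP tags of each region, both on log axes, for all peaks (grey) and for the peaks of each gene (coloured). The Meox2 intron peak (score 157, 167 tags) and the Lhx8 promoter peak (99, 172 tags) are high on both scales, whereas the Lhx8 peak 43.4 kb downstream has 130 tags and a score of 32.

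Score and tag number ordered the peaks differently. In the 8 regions 500 bp wide the numbers differed by at most 7, as at Barx1 (46 tags, score 46) and Shox2 (74 tags, score 75). For wider regions made by joining neighbouring peaks the score could be far lower than the tag number, as at Lhx8 55.1 kb upstream (73 tags, score 28). By tags, the 3 leading peaks were at Lhx8 (172), Shox2 (167) and Meox2 (167). By score, the 3 leading ones were at Meox2 (157), Lhx8 (99) and Shox2 (75), the Shox2 peak being a different one on each scale.

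In distance from the start of transcription the 20 peaks were like all peaks: 15 of the 20 and 6808 of all 9165 lay farther than 1 kb from a TSS. Within 1 kb of the TSS lay 5 (25.0%), at Lhx8, Shox2, Barx1, Meox2 and Pitx1, and the share over all peaks was 25.7%. Another 3 lay 1 to 10 kb from a protein-coding TSS and 12 lay farther. Upstream were 8 and downstream 12, and 7 had their centre inside the gene. The shares of these further classes over all peaks were not computed, so these counts only describe the 20 peaks.

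A forkhead site (GTAAACA or ATAAACA, or else GTAAATA or ATAAATA, on either strand) was present in the central 200 bp of 10 of the 20 peaks (50.0%), against 40.8% of all peaks. In the central 500 bp the numbers were 16 of 20 (80%) and 62.3%, and over the whole width 17 of 20 (85%) and 64.3%, where wider regions have more sequence to search. The 3 peaks with no site at any width were at the Barx1 promoter, Meox1 and Pitx1. Of the 15 peaks farther than 1 kb from a TSS, 7 held a site centrally, where the share over all such peaks was 51.5%. Of the 5 peaks within 1 kb, 3 did, those of Lhx8, Shox2 and Meox2, where the share was 9.89%. Their centres had 33.0, 52.5 and 55.0% GC, whereas those without a site, at Barx1 and Pitx1, had 72.5 and 63.0%.

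**Figure D4:**
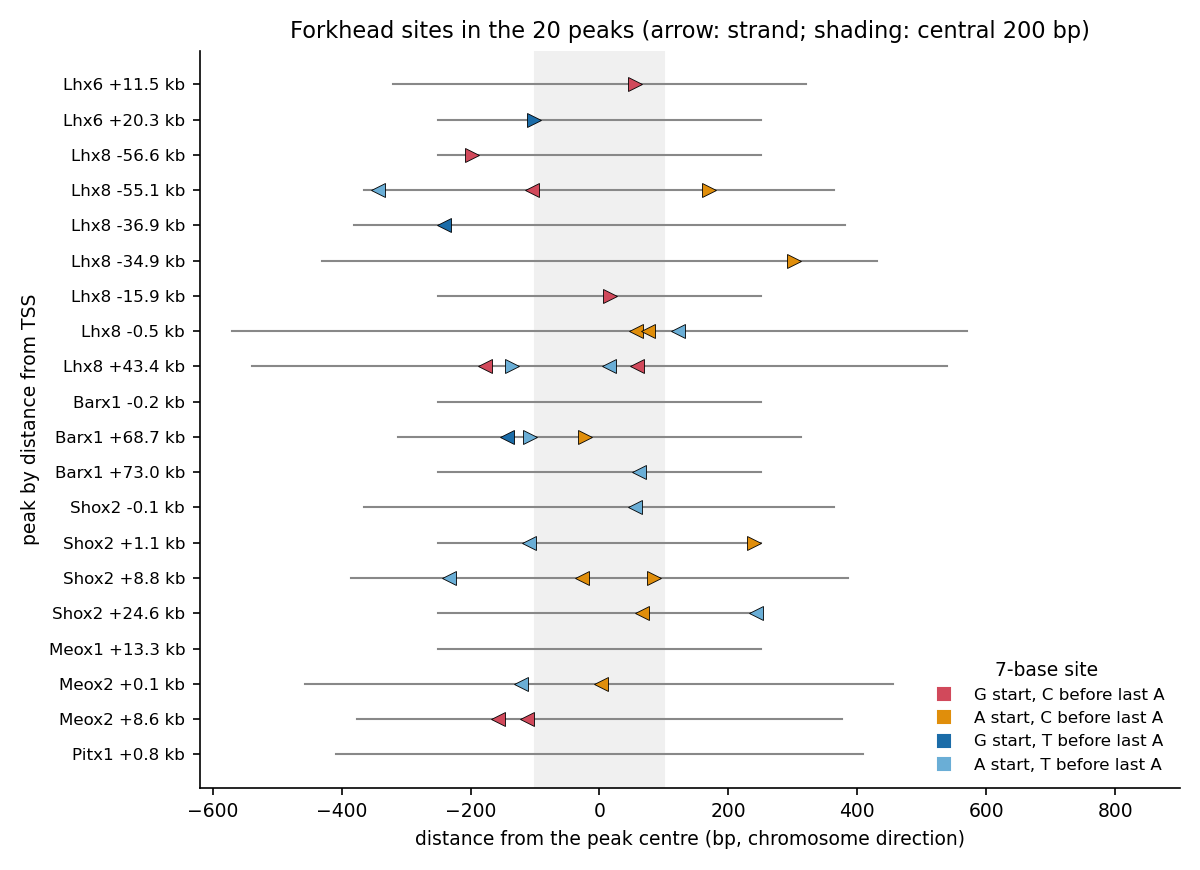
Forkhead sites along the 20 peaks: the horizontal axis is the distance from the peak centre in bp, grey lines are the peak widths, arrows give the strand and colours the 4 site sequences, and the shading is the central 200 bp. Of 32 sites, 13 lie within 100 bp of a centre, and the Barx1 promoter, Meox1 and Pitx1 peaks hold none.

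The 20 peaks held 32 sites, 8 GTAAACA, 10 ATAAACA, 3 GTAAATA and 11 ATAAATA. The last of these made up 34.4% of them and 23.6% of the 11572 sites in all peaks. The median distance of a site from its peak's centre was 108 bp. All 7 Lhx8 peaks held a site, 14 in all, and all 4 Shox2 peaks did, with 8, none of which was GTAAACA or GTAAATA. Of other motifs in the central 200 bp, the homeobox sequence TAATTA was present in 2 of the 20 peaks (5.71% of all peaks), at Lhx6 in intron 4 or 5 and at Lhx8 56.6 kb upstream. The E-box CATCTG was present in 4 (16.1% of all peaks), the SOX sequences AACAAAG or AACAATG in 3 (10.7%), and the RUNX sequences TGTGGTTA or TGTGGTTT in none (3.25%). At the Lhx8 promoter and 8.8 kb from the Shox2 TSS, a SOX sequence overlapped a forkhead site by 4 bases.

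Other genes were compared from 2 lists, taken here as anterior and posterior palate genes. The place of Spry2, Fgf7 and Meis2 in them is less sure than that of the others. Of 11 anterior genes, 7 had a peak (63.6%, against 23.9% of all protein-coding genes), among them Shox2, Msx1 (3 peaks, best score 34), and Alx1, Spry2 and Fgf10, with 1 each and scores of 17 to 23. Bmp4, which encodes a growth factor of the anterior palate, had none. Of 6 posterior genes, all 6 had one: Meis2 (7 peaks), Meox2, Barx1, Fgf7 (1 peak, score 51), Mn1 (2, best 37) and Tbx22 (1, score 24). The best Meis2 peak, in an intron 39.0 kb from its TSS (chr2:115828449-115829079), had 163 tags against 10 (11.68-fold, 6.19 to 24.8) and the same score, 157, as the Meox2 intron peak. The median was 1 peak per anterior gene and 2 per posterior gene, against 0 over all genes. The lists are short, were chosen with earlier results known and were not tested against each other.

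Of 12 paralogues of the 8 genes, 6 had a peak (50.0%, against 23.9% of all protein-coding genes), and they had 7 peaks in all. The highest score was 58, at Lmx1a in an intron (chr1:169720736-169721371, 60 tags against 3), followed by Lhx2 with 34 (49 tags against 3), and Pitx3 had a score of 19. Among the other LIM genes, Lhx9 and Lmx1b had 1 peak each, and Lhx1, Lhx3, Lhx4, Lhx5 and Isl2 had none. Of 10 genes for partners of LIM-domain proteins, 7 had a peak. Lmo4, a LIM-only protein gene, led with 5 peaks, the best at chr3:143890330-143890973 with 249 tags against 14 (12.74-fold, 7.45 to 23.6) and 3 forkhead sites. The LIM-binding cofactor gene Ldb1 had 2 weak peaks (best score 20), and Ldb2, Lmo2 and Rlim had none.

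Short lists of cell type markers were also looked at, although a peak at a marker does not show which cells were present. All 5 mesenchyme genes (Osr2, Prrx1, Twist1, Pax9 and Msx1) had a peak. So did 1 of 5 epithelial genes, and 1 of 3 each of the endothelial, muscle, neural and blood genes, shares near the 23.9% of all protein-coding genes. The best mesenchyme score was 209, at a peak assigned to Twist1 that lay 94.7 kb from its TSS, in a coding exon of Hdac9. The other 4 mesenchyme genes had best scores of 34 to 72. The epithelial gene with a peak, Trp63, had a score of 87, above those 4, and Cdh5, an endothelial gene, had 4 peaks with a best score of 24. A binding map does not measure expression, and the part of other cell types in these values was not tested.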

How the data were processed

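Foxf2-FLAG ChIP and input were compared in 1 library each. The submitters' processing notes name the build mm9 and the tools HOMER, Bowtie 1.0.0 and SAMtools 0.1.19. Peaks were called with HOMER findPeaks in its histone style on the ChIP against the input, per the file headers: peaks of 500 bp were joined into wider regions, no position counted more than 1 tag, and a 10-fold excess over input and over the surrounding 10000 bp was required. The signal columns deposited by the authors are tags scaled to 10000000 and to the input depth. ChIP tags were recovered from the former, each within 0.134 of a whole number (tolerance 0.15), and input tags were taken as deposited, with 0.5 read as 0. The deposited score, the fold (a ratio) and the Poisson p-value against input are the authors' values. The p-value entered no result, and score and fold serve to describe and order the peaks of this file.

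Fold intervals are exact 95% intervals conditional on ChIP and input tags. They cover counting error only, since with 1 library of each kind the variation between libraries is not measured. Chromosome names and ends were compared with the NCBIM37 reference, the assembly of mm9, and genes are from GENCODE vM1. Coordinates are as deposited. TSSs are those of protein-coding transcripts, and distances are to the nearest TSS of the gene from the peak centre. Assignment, motif search and intervals were tested on simulated data with Python 3.11.15, scipy 1.17.1 and pysam 0.24.0. All 8 genes were named with every peak, and at most the 4 highest-scoring genes of each further list were given with full values. Hosts and neighbours of peaks were also named. Values of some list genes are left out. The members and lists were chosen with earlier results of these data known. Comparisons between libraries have no test, and alternatives changed the distance limit, the TSSs, the peak thresholds and the motif window.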

Additional observations from a re-analysis of the deposited data

How the results depend on the processing

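The number of the 8 genes with a peak was within 1.5 times of 7 under all 9 alternatives, a wide band for a number that cannot exceed 8. It fell to 5 with a score of at least 25 and to 6 with a fold of at least 15. The share of all genes with a peak was not computed under these settings. The 20 peaks fell to 11 with a limit of 10 kb and to 6 with a fold of at least 15, and stayed within 1.5 times under the other 7. A fold under 15 was as common elsewhere: it held for 70.0% of the 20 and 66.5% of all peaks. The matching share over all peaks for the 10 kb limit was not computed. The fold of at least 15 removed the peaks with most tags, at Lhx8 (172), Shox2 (167) and Meox2 (167). It kept peaks with 0 or 1 input tag at Barx1, Shox2, Meox1 and Pitx1, besides Lhx6 (42 tags against 2) and Lhx8 (130 against 5). The number of genes under that filter therefore rests largely on weakly measured folds. Forkhead sites were present in 16 peaks with a central window of 500 bp and in 17 over the whole peak, against 10 in the central 200 bp, because more sequence was searched. For single genes, 58 of 72 alternative numbers of peaks stayed within 1.5 times and 14 did not. Among those 14, Lhx8 and Barx1 kept 1 peak each at 10 kb, and Meox2 had 0 at a fold of at least 15. Meox1 and Pitx1 had 0 at a score of at least 25. With no limit Isl1 had 1 and Shox2 had 7. No paired analysis was possible because there is 1 ChIP library and 1 input library. Depth limits the weakest peaks, whose folds rest on 0 or 1 input tag.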

Other observations

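Strong Foxf2-FLAG regions also lay farther from Lhx8 and Lhx6, outside the rule. Upstream of Lhx8, 220.0 kb from its TSS, an intergenic region (chr3:154213279-154213913) had 108 ChIP tags against 7 input tags (11.05-fold, exact 95% interval 5.18 to 28.1) and a score of 99, equal to that of the Lhx8 promoter peak. Its nearest TSS was that of Tyw3, at 46.5 kb. Another, 153.6 kb upstream of Lhx8, had 96 tags against 6 and lay 112.8 kb from Tyw3, beyond the limit for any gene. Upstream of Lhx6, past the neighbouring TSS of Mrrf at 31.0 kb, 156.9 kb from the Lhx6 TSS and 26.1 kb from that of Ptgs1, a region with 84 tags against 5 (12.03-fold, 4.96 to 38.0) held 5 forkhead sites, more than any of the 20 peaks. Its score of 86 was higher than that of both Lhx6 peaks. These regions were chosen after their values were seen.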
